A study of Bos taurus with 9 samples.

Results

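The early transcriptional response to raised osmolality was examined in bovine nucleus pulposus cells by comparing 3 arrays of cells given salt for 5 h with 3 arrays of untreated cells, 6 of the 9 arrays of the series. The cells came from the nucleus pulposus, the gelatinous core of the intervertebral disc, of caudal discs from young calves. The medium was DMEM with serum, and the treated cultures received a salt solution to a final osmolality of 500 mOsm/kg. Each group has biological replicates numbered 1 to 3, and the pairs compared are the arrays with the same number. The other 3 arrays, of cells kept in salt for 24 h, entered the fit as another group that shares the estimate of spread. Whether the replicate cultures were taken from different animals is not labelled. The fit takes out differences between the replicate numbers, so p-values measure only the spread left between these cultures, which may be technical. The untreated cells carry no time label, so time in culture and salt cannot be told apart.

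Disc cells live in a matrix whose charged proteoglycans draw in water and ions, and the osmolality around them changes with load. When osmolality rises, a cell loses water and shrinks. It then takes up ions through transporters of the plasma membrane and later replaces them with small organic solutes such as sorbitol, taurine, betaine and amino acids, in part through genes driven by the transcription factor NFAT5. Early transcription after such a stress can also include immediate early genes, which encode short-lived transcription factors, and genes of messenger RNA (mRNA) turnover.

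The median intensity of the 6 arrays lay between 67.1 and 80.9, on the linear scale of the deposited values. Component 1 of a principal component analysis (47.7% of the variance) set the arrays numbered 3 apart, component 2 (31.1%) the 24 h arrays, and component 3 (8.7%) the control arrays, at 17.2 to 26.0, from the 5 h arrays, at -25.1 to -8.9. Of the 10 nucleus pulposus markers with a probe set for that gene alone, ACAN (mean intensity 1769 over 9 arrays), CDH2 (1677), HIF1A (4648) and SLC2A1 (892) were high. KRT8 (17.2), KRT18 (18), KRT19 (7.09), SHH (10.5) and A2M (10.8) were low, and COL2A1 (145) lay between. The replicates differed in these genes: control replicates 1 to 3 had 329.7, 176.8 and 40.0 for COL2A1 and 2139, 1146 and 497 for ACAN. Of other cell types, 6 annulus and tendon-type fibroblast markers summed to 2660 to 6461 in control and 2798 to 4862 at 5 h. Among them COL1A1 had a mean of 2564. The 8 chondrocyte genes, with ACAN among them, summed to 4629 to 8622 and 5238 to 6536. The 3 neural genes summed to 2703 to 3902 and 2491 to 2787, nearly all from S100B. For 6 smooth muscle and pericyte genes the sums were 700 to 1320 and 617 to 1295. Lower sums came from 7 endothelial genes, between 172 and 227 in control and 176 and 212 at 5 h. The 8 leukocyte and macrophage genes summed to between 229 and 235 in control and 236 and 250 at 5 h, and 1 of them, the receptor gene CSF1R, was called higher at 0.67, with its part in the results not tested. The 5 skeletal muscle genes summed to between 925 and 1102 in control and 1164 and 3431 at 5 h. Most of that rise came from the creatine kinase gene CKM, at 664, 582.5 and 678 in control and 3002, 814 and 2932 at 5 h. CKM was the 1 called of 4 muscle genes tested, beside 2.27% of all genes that rose. It was higher at 1.57, while its other probe set had 0.07. ACTA1 had 267, 287 and 366 in control and 292, 303 and 436 at 5 h, and MYH1, TNNT3 and DES stayed low. Refits without 1 array ended the call for CSF1R in 5 (highest adjusted p = 0.16, without 5 h replicate 3) and CKM in 4 (0.075, without 5 h replicate 1) of 9, and the part of muscle genes in the results was not tested. In RNA from whole cultures, fewer cells of a type and less RNA per cell cannot be told apart.

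After 5 h, 442 probe sets were higher and 614 lower than in control, which is 2.45% and 3.41% of the 18012 tested and 5.86% together. A probe set was called when its adjusted p was under 0.05 in a limma fit on log2(intensity + 16) with the replicate number as a block, and changes are given on this log2 scale, ± SE. On the level of named genes, each read from its brightest probe set, 180 of 7916 rose (2.27%) and 238 fell (3.01%), 5.28% together. Most changes were modest, with a median of 0.74 among the rises and -0.76 among the falls. At a size of at least 1 there were 109 rises and 155 falls, and at a size of at least 2 there were 14 and 11. All 442 and all 614 moved the same way in the 3 pairs, which being called in a test with the replicate block favours. Of them, 303 and 471 had control and 5 h arrays that did not overlap. Over all probe sets tested, 4.04% had every 5 h array above every control array and 6.6% had every 5 h array below, and over genes the shares were 3.83% and 6.38%.

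The response was not equal across the pairs or across the intensity range. Among the probe sets called higher the median change was 0.80, 0.56 and 0.80 in pairs 1, 2 and 3, and among those called lower it was -0.85, -0.58 and -0.82. Pair 2 gave the smallest change for 261 of the 442 rises and 364 of the 614 falls. With probe sets in 5 equal groups from dim to bright, 50 were higher and 90 lower in the dimmest, then 64 and 164, 92 and 173, 125 and 118, and 111 and 69 in the brightest. The excess of falls lay in the 3 dimmer groups, and it depended on scaling: after median centring of the arrays 605 probe sets were called higher and 435 lower (58.2% higher, against 41.9% as deposited), and with quantile normalization 450 and 492. Centring moved the median change of all probe sets from -0.03 to 0.055, so that fewer falls than rises were then called.

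**Figure D1:**
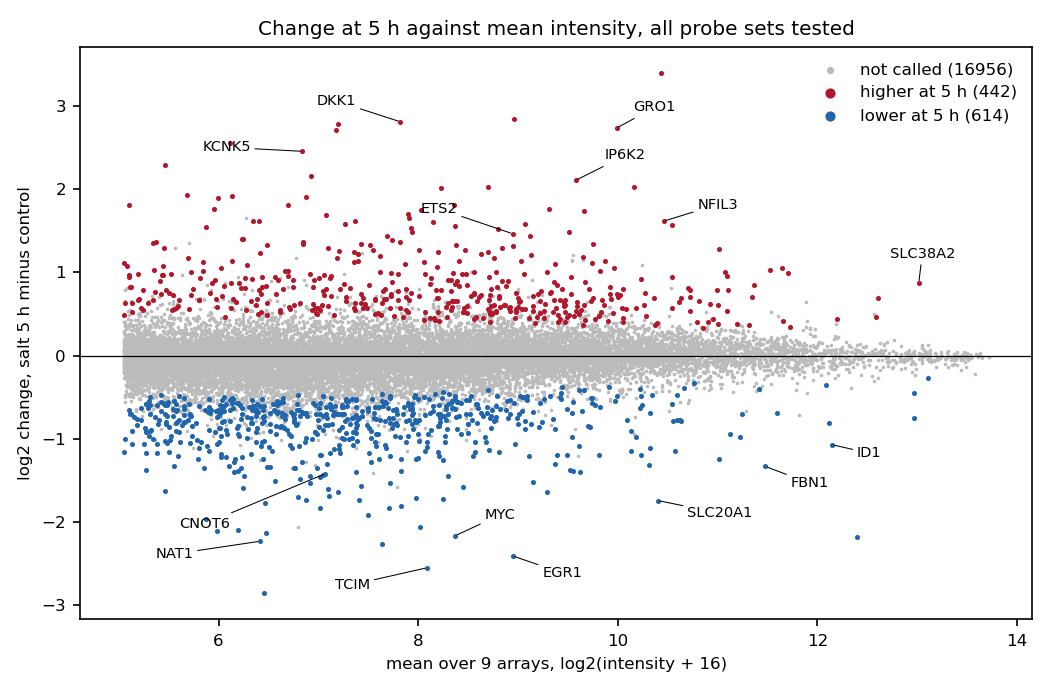
Each point is 1 of the 18012 probe sets tested, by its mean over 9 arrays (x axis, log2 of intensity plus 16) and its change from control to salt 5 h (y axis, log2). Red marks the 442 called higher and blue the 614 called lower, and 14 of the rises and 11 of the falls reach a size of 2.

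The counts rested on the pairing and on single arrays. Without the replicate block 42 probe sets were higher and 45 lower, all of them among those called with it. Leaving out 1 of the 9 arrays gave between 163 (without 5 h replicate 3) and 698 (without 5 h replicate 2) higher, and between 178 (without control replicate 3) and 1256 (without 5 h replicate 2) lower. Single refits gave 165 and 178 without control replicate 3, 174 and 206 without 5 h replicate 1, 163 and 229 without 5 h replicate 3, 272 and 302 without control replicate 1, and 305 and 405 without control replicate 2. Of 131 named genes that were called, 63 kept their call in all 9 of these refits. Without the block the call ended for 102 of the 131.

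A potassium channel and an amino acid carrier were among the genes that rose. Of 10 amino acid transporters tested 1 rose and 1 fell, beside 2.27% and 3.01% of all genes, with a median of -0.05. KCNK5, a potassium channel that responds to cell volume, had intensities of 21.6, 14.8 and 19.4 in control replicates 1 to 3 and 216, 140.5 and 170.3 at 5 h. All 5 h arrays lay far above all control arrays, and the gene rose by 2.46 ± 0.14 (adjusted p = 6.8e-05). SLC38A2, a sodium-coupled carrier that brings neutral amino acids into the cell, had 6578, 5507 and 6840.0 in control and 10516, 11327 and 12947 at 5 h. It is one of the brightest genes of the array, its groups did not overlap, and it rose by 0.88 ± 0.08 (adjusted p = 0.00027). A dimmer SLC38A2 probe set gave 2.03, so the size of the rise is uncertain.

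Of 13 volume-regulating channels and cotransporters tested, 3 rose and 1 fell, beside 2.27% and 3.01% of all genes, with a median of 0.07 against -0.03 over all genes. This list, that of amino acid transporters and those that follow were chosen with earlier results of these data known. Some share members, so their counts are no test. LRRC8C, a subunit of the volume-regulated anion channel, rose by 0.73 ± 0.14, and SLC4A11, a membrane transporter of the bicarbonate transporter family, by 1.34 ± 0.26 from an intensity of 18.5 ± 9.57 (SD, n = 3). CLCN3, a chloride and proton exchanger of endosomes, fell by 0.61 ± 0.14, a call that ended with centring and with quantile normalization. The sodium-potassium-chloride cotransporter SLC12A2, which loads shrunken cells with salt, stood at 0.19 and was not called. Of 6 genes of the sodium pump and its regulators 0 were called, and the pump subunit ATP1B1 had 0.30 ± 0.09 (adjusted p = 0.098). Refits without 1 array ended the call for LRRC8C in 4 (highest adjusted p = 0.12, without 5 h replicate 3), SLC4A11 in 4 (0.11, without 5 h replicate 1) and CLCN3 in 7 (0.21, without 5 h replicate 1), and 1 member of this list rose in place of 3 without control replicate 3, 5 h replicate 1 or 5 h replicate 3. Without the block only KCNK5 of this list kept its call.

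Of 14 osmoprotective genes listed 8 were tested, and SLC5A3, SLC6A12 and NFAT5 were among those that were not. Among the 8 tested 3 rose and 0 fell, beside 2.27% and 3.01% of all genes, with a median of 0.21. Aldose reductase (AKR1B1), which makes sorbitol from glucose, had 1163, 1380.5 and 999.7 in control and 1536, 1721 and 1416 at 5 h. The groups did not overlap, though the gap was small beside the spread, and the rise was 0.40 ± 0.09 (adjusted p = 0.028). The inducible chaperone HSPA1A had 2658, 1629.9 and 1968 in control and 3802, 3448 and 5221 at 5 h and rose (adjusted p = 0.041), and 2 of its 5 other probe sets were called, also higher. Close relatives may share its probes, and its call ended with quantile normalization. The taurine transporter SLC6A6 stayed low, at 25.4, 35.7 and 18.3 in control and 30.6, 35.8 and 23.4 at 5 h, and its change of 0.12 ± 0.12 was not called. The kinase SGK1, a regulator of sodium transport, went down in pairs 1 and 3 and up in pair 2, and was not called (-0.02 ± 0.20). Single-array refits ended the call for AKR1B1 in 5 (highest adjusted p = 0.17, without 5 h replicate 3) and HSPA1A in 4 (0.2, without 5 h replicate 3) of the 9 refits, and 1 member rose without any 1 of control replicates 2 and 3 and 5 h replicates 1 and 3. Without the block SLC38A2 alone kept its call in this list.

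**Figure D2:**
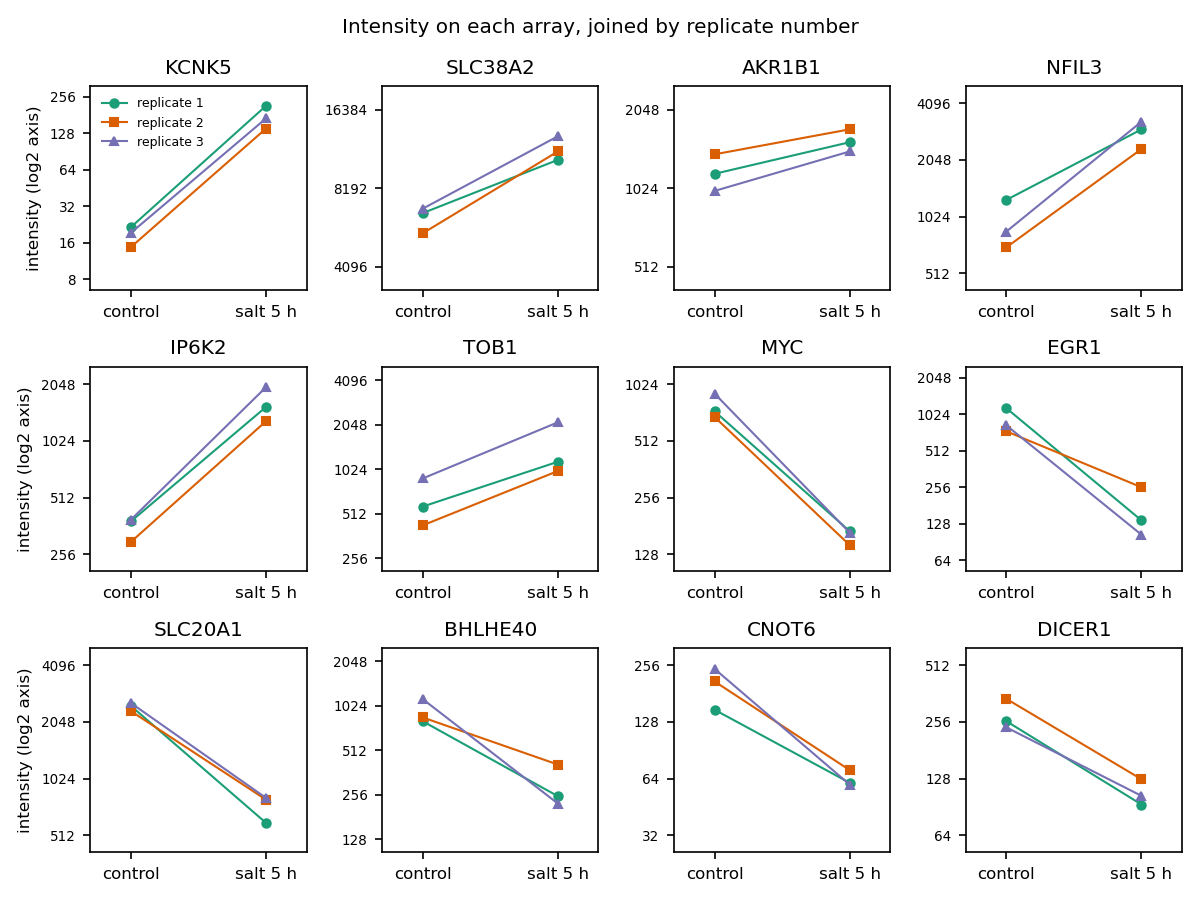
Intensity (y axis, log2 scale, a different range in each panel) of 12 genes in control and salt 5 h arrays, with lines that join arrays of the same replicate number. KCNK5 went from between 14.8 and 21.6 to between 140.5 and 216.3. In all 12 genes every line runs the same way, as in every probe set called, so this goes with the choice of genes.

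Phosphoinositide and inositol phosphate enzymes gave 2 rises and 0 falls of 16 tested, beside 2.27% and 3.01% of all genes. IP6K2, which adds a phosphate to inositol hexakisphosphate, had 383, 298 and 391 in control and 1548, 1301 and 1970.5 at 5 h. The 5 h arrays were all well above the control arrays, with a rise of 2.11 ± 0.14 (adjusted p = 6.8e-05) that was of like size in the 3 pairs, and the call was kept without the block. Its other probe sets gave 1.44, 0.46 and 0.22, of which the first was called. PIK3CA, the catalytic subunit of a phosphoinositide 3-kinase, rose by 1.17 ± 0.21, and its other probe set was called higher too, but the call ended for PIK3CA in 3 (highest adjusted p = 0.087, without control replicate 3) of the 9 refits and without the block. Among other membrane genes, the endolysosomal cation channel MCOLN3 rose by 2.16 ± 0.30 and the gap junction gene GJC1 by 1.81 ± 0.22, from 204 ± 75 to 787 ± 359 (SD, n = 3). Both kept their calls with any 1 array left out and lost them without the block.

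Several transcription factors of body patterning were higher. Of 17 homeobox and limb patterning genes tested 5 rose and 0 fell, beside 2.27% and 3.01% of all genes, and the list's median was 0.24. MEOX2, a homeobox gene of somite and limb mesoderm, had 184, 233 and 245 in control and 1143, 716 and 1016 at 5 h. OSR2, a zinc finger gene of limb and joint formation, had 42.2, 55.8 and 47.9 and 246, 197 and 238. For both genes every 5 h array lay above every control array, and the rises were 2.02 ± 0.18 and 1.91 ± 0.15 (adjusted p = 0.00036 and 0.00019). The homeobox genes HOXA4 and HOXA9 rose by 1.34 ± 0.15 and 0.61 ± 0.10, and PBX3, a partner of HOX proteins on DNA, by 0.56 ± 0.12. Among 11 HOX genes 3 rose, the last being HOXC13 at 0.49 ± 0.12, and the other members ranged from -0.25 for HOXD10 to 0.32 for HOXC6, not called. In the 9 refits 3 to 5 members of the list rose, the fewest without control replicate 3, where 1 HOX gene rose. With 1 array left out, the call was lost for HOXA9 in 1 (highest adjusted p = 0.059, without control replicate 3), PBX3 in 4 (0.15, without 5 h replicate 1) and HOXC13 in 8 (0.22, without control replicate 3), and MEOX2, OSR2 and HOXA4 kept theirs without the block too.

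The repressors NFIL3 and BHLHE40 changed in opposite directions. NFIL3, a repressor that acts in circadian and immune gene control, had 1256, 704 and 854 in control and 2969, 2337 and 3263 at 5 h. The groups did not overlap, the rise was 1.62 ± 0.16 (adjusted p = 0.00047), and a dimmer probe set gave 1.65. BHLHE40, another repressor with a role in the circadian clock, moved the other way, from 804, 853 and 1136 to 250.0, 409 and 223. It fell by 1.64 ± 0.25 (adjusted p = 0.0049), and its dimmer probe set had -1.28, also called. These were the only called members of 7 clock and PAR bZIP genes tested, beside 2.27% and 3.01% of all genes, and both kept their calls without the block.

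The related ETS factors ETS1 and ETS2 rose by 1.22 ± 0.12 and 1.47 ± 0.10. ETS1 had 301, 317 and 195 in control and 652, 830.0 and 478 at 5 h, and its other probe sets gave 1.25 and 0.87, both called. ETS2 had 363, 242 and 328 and 1042, 638 and 1009.5, but a second ETS2 probe set of like brightness gave -0.12 and was not called, so ETS2 is uncertain. CREB1, the cyclic AMP response factor, rose by 1.23 ± 0.20, and KLF5 by 1.14 ± 0.27 with overlapping groups, since 5 h replicate 2 (501) lay below control replicate 3 (647). Refits ended the call for CREB1 in 2 (highest adjusted p = 0.061, without 5 h replicate 1) and KLF5 in 5 (0.23, without 5 h replicate 1), KLF5 was also lost with quantile normalization, and none of these 4 genes kept its call without the block.

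Several regulators of chromatin were higher. Of 24 chromatin remodelling genes tested 7 rose and 0 fell, beside 2.27% and 3.01% of all genes, with a median of 0.18. CHD2, a remodelling ATPase, had 158, 156 and 172 in control and 348, 493 and 404 at 5 h, and rose by 1.26 ± 0.15 (adjusted p = 0.0016). BRD2, a bromodomain protein that reads acetylated histones, had 454, 626 and 649 and 934, 1584 and 1331 and rose by 1.12 ± 0.10. In both genes every 5 h array lay above every control array. The acetyltransferase gene CREBBP rose by 0.75 ± 0.13, JMJD1C by 0.70 ± 0.12, INO80, the ATPase of its own remodelling complex, by 0.53 ± 0.11, ARID4B by 0.63 ± 0.14 and BAZ1A by 0.60 ± 0.13. Members not called ranged from -0.48 for BAZ2B to 0.34 for BAZ1B, and the central ATPases SMARCA4 and SMARCA2 had 0.17 and -0.02. In the 9 refits between 2 (without 5 h replicate 1) and 8 (without 5 h replicate 2) of the list rose, with 4 without control replicate 1 and 3 without control replicate 3 or 5 h replicate 3. The calls ended for JMJD1C in 1 (highest adjusted p = 0.057, without 5 h replicate 1), CREBBP in 3 (0.083, without 5 h replicate 1), INO80 in 4 (0.15, without 5 h replicate 1), ARID4B in 6 (0.21, without 5 h replicate 1) and BAZ1A in 7 (0.19, without 5 h replicate 1), that of ARID4B also with quantile normalization, and CHD2 was the 1 member that rose without the block.

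Of 19 genes of pause release and transcript elongation 2 rose and 0 fell, beside 2.27% and 3.01% of all genes. They were HEXIM1, which holds the elongation kinase P-TEFb inactive, at 0.73 ± 0.10, and the Mediator subunit MED26, at 0.72 ± 0.12. RPRD1A, which binds the tail of RNA polymerase II, fell by 1.36 ± 0.16, from 49.8, 75.5 and 118 to 15.5, 14.3 and 34.5, with no overlap between the groups. PPP1R10, a nuclear targeting subunit of protein phosphatase 1, rose by 1.76 ± 0.28 with arrays that overlapped, at 133, 207 and 64.8 in control and 412, 1432 and 152 at 5 h. Each of its 5 h arrays was above the control of its own number, and the spread between numbers was wide. Among 16 SR proteins and CLK kinases 2 rose and 1 fell, against the same 2.27% and 3.01%. CLK1 and CLK2, kinases that phosphorylate SR splicing factors, moved in opposite directions, CLK1 by 0.67 ± 0.16 and CLK2 by -1.15 ± 0.14. MED26 lost its call in 3 of the 9 refits and CLK1 in 6 (highest adjusted p = 0.078 and 0.13, without 5 h replicate 1), and no gene of this paragraph was called without the block.

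Of 23 genes of mRNA decay tested 5 rose and 1 fell, beside 2.27% and 3.01% of all genes, with a median of 0.14. TOB1, an antiproliferative adaptor that brings the CCR4-NOT deadenylase to mRNAs, had 572, 427 and 887 in control and 1150.0, 995 and 2128 at 5 h. Control replicate 3 was close to the lowest 5 h array, the groups did not overlap, and TOB1 rose by 1.14 ± 0.13 (adjusted p = 0.0014). Its relative TOB2 rose by 0.80 ± 0.13, PNRC1, which acts in decapping, by 1.05 ± 0.09, ZFP36L1, which binds AU-rich elements, by 0.53 ± 0.12 with overlapping groups, and SMG1, a kinase of nonsense-mediated decay, by 0.57 ± 0.13. CNOT6, a catalytic subunit of that same deadenylase, moved down, from 148, 209.6 and 244 to 60.8, 71.0 and 59.5. Its change of -1.42 ± 0.15 (adjusted p = 0.00082) was present in every pair, while the subunits CNOT1, CNOT2, CNOT7 and CNOT10 had values of 0.14, 0.12, 0.14 and 0.03, not called. Between 2 (without 5 h replicate 1) and 7 (without 5 h replicate 2) members rose in the 9 refits, with 3 without control replicate 2, control replicate 3 or 5 h replicate 3, the calls ended for TOB2 in 1 (highest adjusted p = 0.061, without 5 h replicate 1), ZFP36L1 in 4 (0.18, without 5 h replicate 3) and SMG1 in 5 (0.2, without 5 h replicate 1), and PNRC1 and CNOT6 alone were called without the block.

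DICER1, the enzyme that cuts microRNA precursors, fell from 258, 339 and 239 to 93.3, 127 and 104. The highest 5 h array was below the lowest control array, and the change was -1.24 ± 0.12 (adjusted p = 0.00057), a call kept without the block and in all 9 refits. It was the 1 called gene of 7 in the microRNA processing list, beside 3.01% of all genes that fell, where DGCR8 had -0.42, AGO2 0.20 and PRKRA 0.31.

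Of 19 immediate early genes tested 3 rose and 4 fell, beside 2.27% and 3.01% of all genes, with a median of -0.03. MYC, a driver of growth, had 734, 685 and 911 in control and 169.8, 143 and 167 at 5 h. Its groups were far apart and the change of -2.16 ± 0.13 (adjusted p = 6.8e-05) was nearly equal in the 3 pairs. EGR1, a zinc finger factor induced by growth signals, had 1152, 743 and 832 and 137, 257 and 104, with the weakest fall in pair 2. EGR1 fell by 2.41 ± 0.37 (adjusted p = 0.0057), and a dim second probe set gave 0.09. JUN fell by 1.32 ± 0.25 and FOSL1 with a change of -1.04 ± 0.17, both subunits of AP-1 and both with overlapping groups. The 3 other JUN probe sets had -1.20, -1.19 and -1.84, all called.

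The members that rose were ATF3, a stress-induced repressor, by 1.76 ± 0.32, the survival gene IER3 by 0.69 ± 0.09 and the nuclear receptor NR4A2 by 0.94 ± 0.20. FOS had 256, 136 and 299 in control and 185, 205 and 142 at 5 h, without a common direction over the pairs, and was not called (-0.30 ± 0.24). FOSB, JUNB and FOSL2 had -0.03, -0.11 and 0.06, not called. In the 9 refits 1 to 4 members rose and 2 to 7 fell, with 1 and 2 without control replicate 3 or 5 h replicate 3, 1 rise without 5 h replicate 1 and 7 falls without 5 h replicate 2, and the calls ended for ATF3 in 3 (highest adjusted p = 0.084, without 5 h replicate 3), NR4A2 in 4 (0.13, without 5 h replicate 3), JUN in 4 (0.1, without control replicate 3) and FOSL1 in 2 (0.063, without control replicate 3). MYC and IER3 were the members called without the block.

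Of 13 MAP kinase phosphatases and feedback inhibitors 1 rose and 2 fell, beside 2.27% and 3.01% of all genes. The pseudokinase gene TRIB1 had 421, 506 and 417 in control and 57.5, 143 and 60.9 at 5 h, with the smallest drop in replicate 2. It fell by 2.26 ± 0.29 (adjusted p = 0.0023), and the related TRIB2 with a change of -0.86 ± 0.14. The phosphatase DUSP14 rose by 0.78 ± 0.12, while DUSP1, which was 2082, 1126 and 1139 in control and 903, 719 and 1017 at 5 h, did not pass the test (-0.66 ± 0.24, adjusted p = 0.15). Of 21 kinase genes of MAP kinase cascades 2 fell, against 3.01% of all genes. MAPK6, an atypical MAP kinase, fell by 0.79 ± 0.08. MAP3K14, the kinase of the noncanonical NF-kB pathway, fell from 54.0, 59.4 and 58.9 to 6.2, 9.3 and 8.2. These 5 h values are near the floor of the array, so the change of -1.62 ± 0.14 is compressed by the pseudocount. Without 5 h replicate 2, 5 of the phosphatases and feedback inhibitors fell. TRIB1, MAPK6 and MAP3K14 kept their calls without the block.

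Secreted signals were among the strongest rises. DKK1, a Wnt antagonist, had 51.7, 34.8 and 49.9 in control and 586, 189 and 617 at 5 h. Replicate 2 rose least, yet stood above every control array, and the rise was 2.81 ± 0.33 (adjusted p = 0.0015). GRO1, a neutrophil-attracting chemokine, had 303, 204 and 594 in control and 1593, 2757 and 2824 at 5 h, without overlap and with the greatest change in pair 2. It rose by 2.74 ± 0.23, and its 3 other probe sets gave 2.71, 2.79 and 2.84. The related CXCL3 was dim, at 9.2, 10.5 and 11.8 in control and 32.0, 29.5 and 47.7 at 5 h, and rose by 0.97 ± 0.12. Close chemokine genes may share probes.

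GRO1 and CXCL3 were the 2 called of 18 cytokine and chemokine genes, 0 of which fell, beside 2.27% and 3.01% of all genes, while 4 rose without control replicate 1 and 2 fell without 5 h replicate 2 or 24 h replicate 2. IL6 had 2884, 1189 and 3158 in control and 1027, 931 and 904 at 5 h, so that every 5 h array lay below every control array, but the change of -1.20 ± 0.35 did not pass the test (adjusted p = 0.079). The growth factor FGF10 rose by 1.27 ± 0.25 with overlapping groups, and the semaphorin SEMA4A by 2.29 ± 0.24 from 11 ± 1.13 (SD, n = 3), where a second probe set had 0.71 and was not called. PTGS2, the inducible cyclooxygenase, rose by 0.85 ± 0.21 with overlapping groups, and its second probe set had 0.41 and was not called. Of 17 NF-kB pathway genes 1, the adaptor kinase RIPK2, rose (0.67 ± 0.14), against 2.27% of all genes. With 1 array left out, the call was lost for FGF10 in 4 (highest adjusted p = 0.12, without 5 h replicate 1), PTGS2 in 6 (0.18, without 5 h replicate 3) and RIPK2 in 4 (0.16, without 5 h replicate 1), that of PTGS2 also with quantile normalization, and DKK1, GRO1 and SEMA4A kept theirs without the block.

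**Figure D3:**
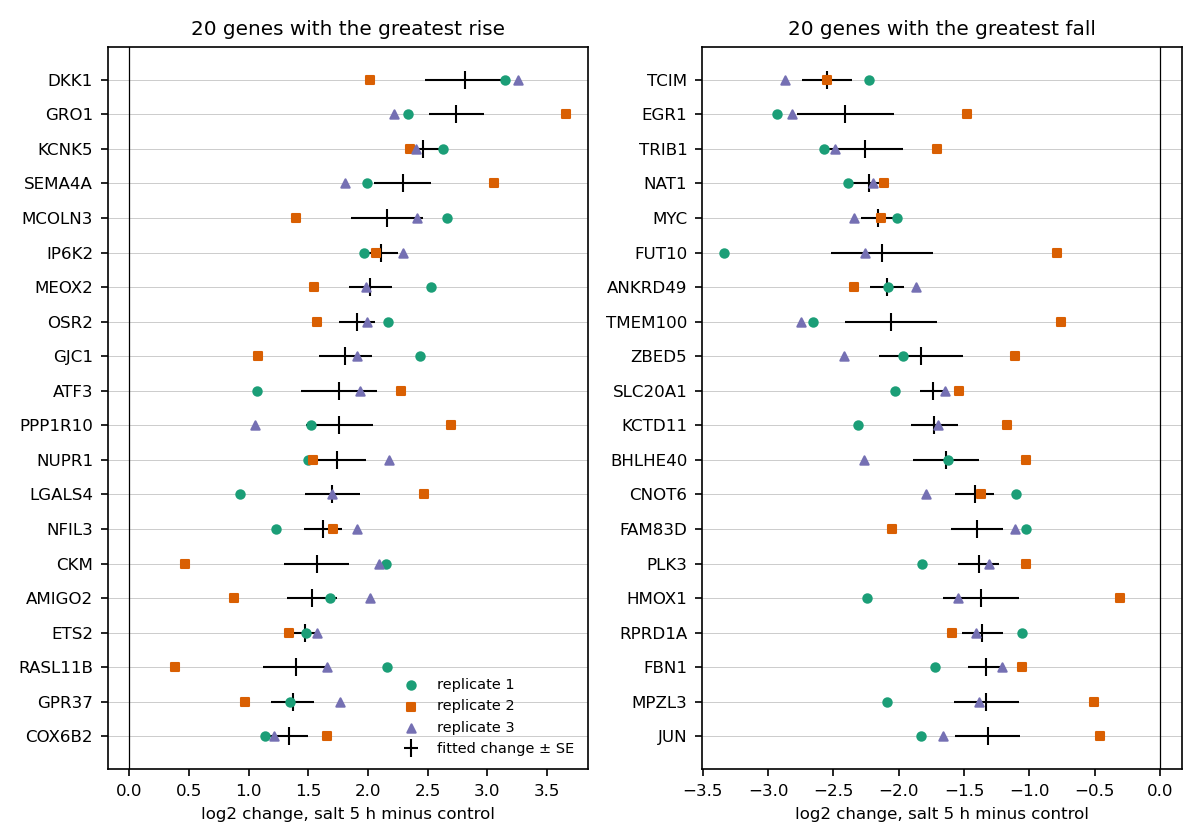
The 20 genes with the greatest rise (left) and fall (right) by the rule for named genes, with the log2 change in each replicate pair (coloured points) and the fitted change ± SE (black). NAT1 lay between -2.39 and -2.11 in the 3 pairs, and HMOX1 between -2.24 and -0.31.

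Among further falls, the sodium-phosphate cotransporter SLC20A1 had 2486, 2334 and 2575 in control and 596, 792 and 808 at 5 h. All 5 h arrays were far below control, with a change of -1.74 ± 0.10 (adjusted p = 6.8e-05). NAT1, an arylamine acetyltransferase, went from 146, 122 and 139 to 15.0, 15.9 and 17.8, and ANKRD49 from 129, 106 and 106 to 18.3, 8.1 and 17.4. Both reached intensities near the floor on every 5 h array, so their changes of -2.23 ± 0.13 and -2.09 ± 0.13 are understated. TCIM fell by 2.55 ± 0.19, KCTD11, an adaptor of ubiquitin ligases, with a change of -1.73 ± 0.18, the fucosyltransferase gene FUT10 with a change of -2.13 ± 0.39 and TMEM100 with a change of -2.06 ± 0.35. FUT10 was listed at 0 on 5 h replicate 1, and its call and that of TMEM100 ended in 3 of the 9 refits each (highest adjusted p = 0.079 and 0.071, without control replicate 3). Of these genes SLC20A1, NAT1, ANKRD49, TCIM and KCTD11 kept their calls without the block.

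Over all 146 solute carrier genes tested 3 rose and 3 fell, near the 2.27% and 3.01% of all genes. Beside SLC38A2, SLC4A11 and SLC20A1 these were the organic anion transporter SLCO4A1 (0.52 ± 0.13), the amino acid transporter SLC43A2 (-0.75 ± 0.16) and the mitochondrial carrier SLC25A51 (-0.46 ± 0.11). In the 9 refits 1 to 8 carriers fell, with 8 without 5 h replicate 2, 5 without 24 h replicate 2 and 1 without any 1 of the control arrays or 5 h replicates 1 and 3. The calls ended for SLCO4A1 in 7 (highest adjusted p = 0.2, without 5 h replicate 1), SLC43A2 in 5 (0.16, without 5 h replicate 1) and SLC25A51 in 8 (0.27, without 5 h replicate 1), that of SLC25A51 also under both scalings.

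Zinc finger genes held 13 falls. Of 88 genes with ZNF or ZFP symbols 2 rose and 13 fell, beside 2.27% and 3.01% of all genes, with a median of -0.13 against -0.03 over all genes. Many genes of this name encode proteins that bind DNA through zinc-held fingers. ZNF677 had 188, 195 and 192 in control and 83.5, 101 and 58.5 at 5 h, without overlap, and fell by 1.12 ± 0.14. ZNF35 fell by 0.78 ± 0.11, ZNF3 with a change of -0.95 ± 0.16 and ZNF181 with a change of -0.87 ± 0.14. The exceptions were ZNF143, an activator at many promoters, which rose by 0.80 ± 0.13, and ZNF592 at 0.63. With centred arrays 3 rose and 12 fell, with quantile normalization 2 and 12, and without the block 0 and 0. The number of falls went from 2 (without control replicate 3) to 23 (without 5 h replicate 2) in the 9 refits, with 4 without 5 h replicate 1 or 5 h replicate 3. Single calls ended for ZNF143 in 3 (highest adjusted p = 0.062, without control replicate 3), ZNF592 in 6 (0.2, without 5 h replicate 1), ZNF181 in 2 (0.064, without 5 h replicate 1) and ZNF3 in 1 (0.056, without control replicate 3).

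Of 59 ring finger and tripartite motif genes 2 rose and 5 fell, beside 2.27% and 3.01% of all genes, so the rises were near the share of all genes. RNF19B, a ubiquitin ligase, rose by 1.32 ± 0.11 (adjusted p = 0.00023), from 258, 260.2 and 172 to 669.6, 582 and 522. TRIM13, a ligase of the endoplasmic reticulum, fell from 435, 447 and 412 to 207, 242 and 204. The change was -0.94 ± 0.10 with little spread, and both genes kept their calls without the block. RNF145 fell by 1.15 ± 0.16, RNF168, a ligase of the DNA damage response, with a change of -1.03 ± 0.18 and TRIM34 with a change of -1.17 ± 0.22. The deubiquitinase gene ZRANB1 rose by 1.21 ± 0.16, but 2 dimmer probe sets gave 0.17 and 0.45, and 0 of 26 USP genes were called. In the 9 refits 2 (without control replicate 3) to 9 (without 5 h replicate 2) ring finger and tripartite motif genes fell, with 2 without 5 h replicate 1 and 3 without 5 h replicate 3, and the calls ended for RNF168 in 2 (highest adjusted p = 0.07, without control replicate 3) and TRIM34 in 3 (0.094, without 5 h replicate 1).

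Of 26 fibrous matrix genes 0 rose and 2 fell, beside 2.27% and 3.01% of all genes, with a median of -0.17. FBN1, which encodes fibrillin of the microfibrils, had 6587, 2961 and 4064 in control and 1986, 1407 and 1753 at 5 h. The groups did not overlap and the change was -1.33 ± 0.14 (adjusted p = 0.00081). COL1A2 fell by 0.27 ± 0.07 on a probe set near the top of the array range and had -0.81 on another, and the call of the first ended with centring. Of 16 cartilage-type matrix genes 0 were called: ACAN, the core protein of aggrecan, had 2139, 1146 and 497 in control and 1256, 1310.2 and 592 at 5 h, falling in pair 1 and rising in pairs 2 and 3. COL2A1 stood at -0.37 ± 0.17 (adjusted p = 0.26). Of 26 actin genes 2 fell, against the same 3.01%, among them CDC42EP3, a regulator of actin shape, with a change of -1.15 ± 0.16. CCN2, a matricellular target of YAP and SRF, fell by 0.74 ± 0.14. It was the 1 called of 16 YAP and SRF target genes, beside 3.01% of all genes that fell, and their median was -0.08. Refits ended the call for COL1A2 in 8 (highest adjusted p = 0.24, without 5 h replicate 1) and CCN2 in 3 (0.088, without 5 h replicate 1), and none of these genes was called without the block.

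Lists of growth and signalling genes held 0 to 2 calls in each direction, beside 2.27% and 3.01% of all genes. CCND1 and CCNE2, cyclins that drive entry into S phase, had changes of -1.19 ± 0.23 and -0.80 ± 0.15, the 2 called of 33 DNA replication and G1/S genes. Of 27 mitosis genes 0 were called, and their median of 0.20 came from 0.58, 0.07 and -0.09 in pairs 1, 2 and 3. The polo-like kinase genes PLK3 and PLK2 had changes of -1.39 ± 0.16 and -0.91 ± 0.19, and the phosphatase PPM1D rose by 0.47 ± 0.11, among 17 p53 and growth arrest genes, while CDKN1A had 0.10 ± 0.22 and was not called. Among 24 TGF-beta and BMP genes the inhibitors of differentiation split, ID1 with 5607, 7182 and 4772 in control and 2080.0, 6042 and 1638 at 5 h, and ID2 with 2087, 1904 and 1897 and 2516, 4760.3 and 2754. ID1 fell by 1.07 ± 0.21 in overlapping groups, with 5 h replicate 2 close to control, and ID2 rose by 0.71 ± 0.16, mostly in pair 2, where a second ID2 probe set had -0.04. LFNG, a glycosyltransferase that modifies Notch, fell by 1.24 ± 0.14, while its dimmer second probe set had -0.05 and was not called, so LFNG is uncertain. The caspase CASP6 fell with a change of -0.75 ± 0.11. Single-array refits ended the call for CCND1 in 4 (highest adjusted p = 0.11, without 5 h replicate 1), CCNE2 in 4 (0.11, without 5 h replicate 1), PLK2 in 4 (0.098, without control replicate 3), PPM1D in 7 (0.25, without 5 h replicate 1), ID1 in 4 (0.12, without 5 h replicate 1) and ID2 in 6 (0.12, without control replicate 3), that of ID2 also with quantile normalization, and LFNG alone was called without the block.

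Of 29 heat shock and chaperone genes 2 rose and 0 fell, beside 2.27% and 3.01% of all genes, namely HSPA1A and its cochaperone DNAJB1 (0.54 ± 0.12, with -0.15 on a second probe set). Of 17 unfolded protein response genes 0 were called. Among 20 ATF4 and integrated stress response genes 2 rose and 1 fell. NUPR1, a stress-induced nuclear protein, rose by 1.74 ± 0.24, from 366, 134 and 284 to 1065, 419.6 and 1345, ATF4 itself by 0.35 ± 0.09, and DDIT4, an inhibitor of growth signalling, fell by 0.69 ± 0.16. HMOX1, which degrades heme, was 1764, 1513 and 743 in control and 359.9, 1215 and 242 at 5 h. It fell in every pair, hardly in pair 2, so the groups overlapped, and the fitted change of -1.37 ± 0.29 was the 1 call of 27 oxidative stress genes. None was called of 45 cytosolic ribosomal protein genes, 39 oxidative phosphorylation genes, 28 glycolysis and hypoxia genes, 18 cholesterol genes and 40 proteasome genes, with medians of 0.00, 0.02, 0.00, -0.12 and 0.02. At the 3 arrays per group of this design, changes of low size in these lists may have gone uncalled. The calls ended for DNAJB1 in 7 (highest adjusted p = 0.18, without 5 h replicate 1), ATF4 in 7 (0.23, without 5 h replicate 3), DDIT4 in 5 (0.14, without control replicate 3) and HMOX1 in 4 (0.16, without 5 h replicate 1), ATF4 lost its call with quantile normalization and DDIT4 with centring, and none of these genes was called without the block.

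**Figure D4:**
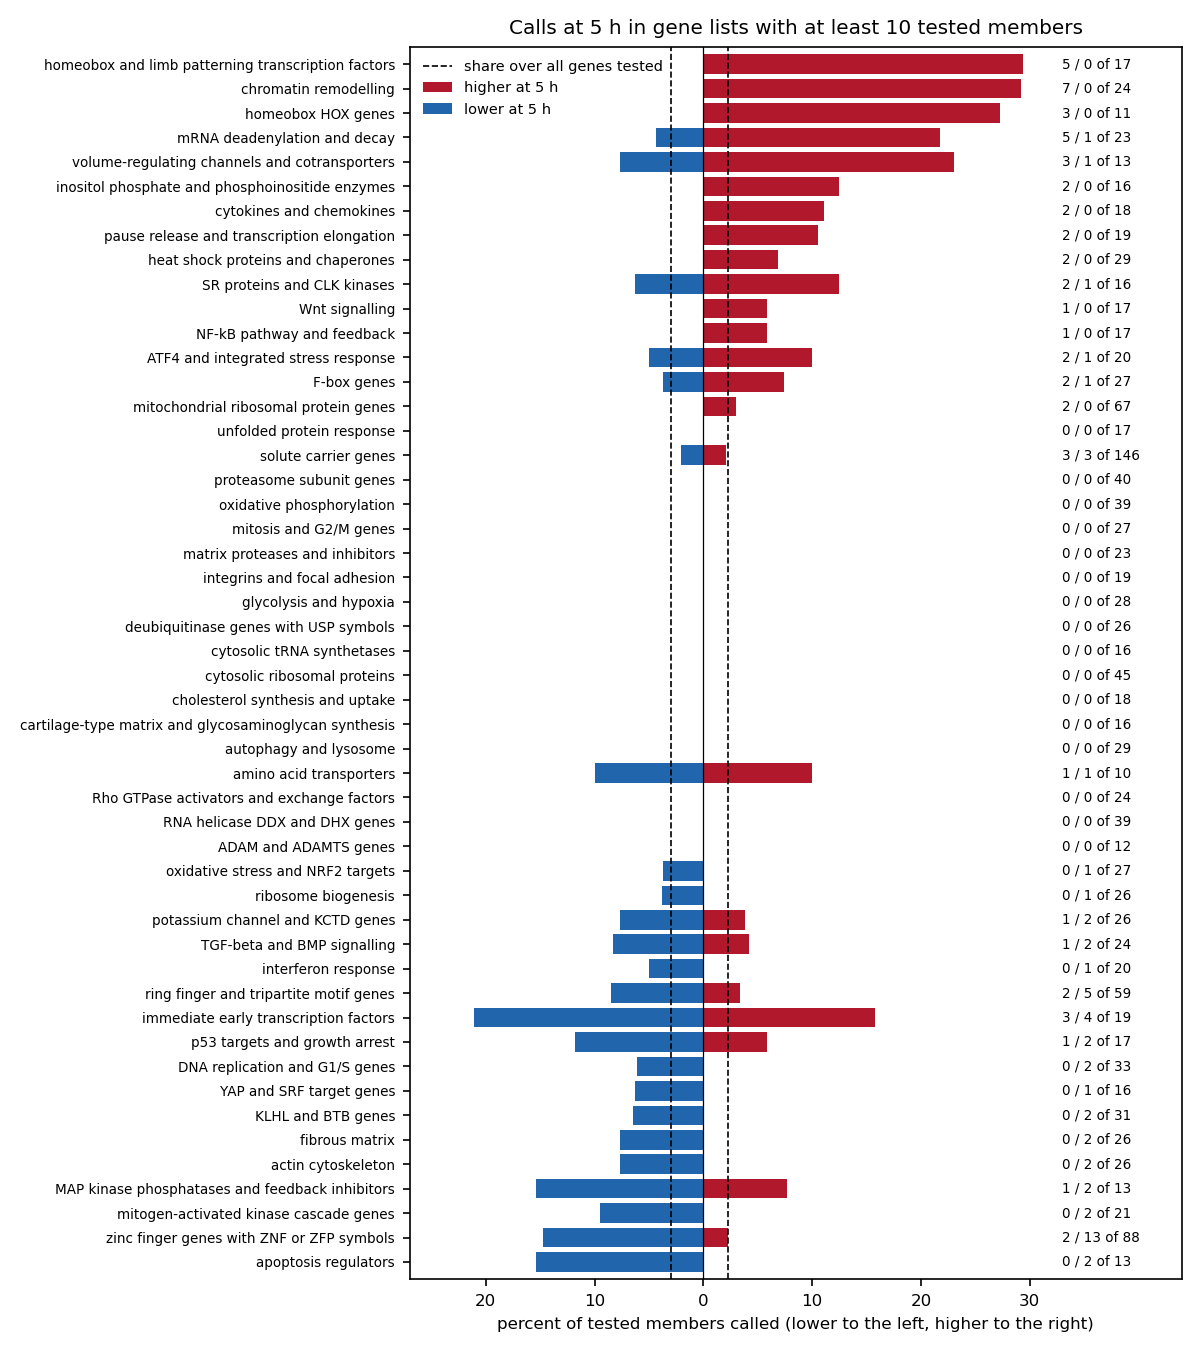
Percent of tested members called higher (right, red) and lower (left, blue) at 5 h in each gene list or family with at least 10 tested members, with counts beside the bars. Dashed lines mark the 2.27% and 3.01% of all 7916 genes, and homeobox and limb patterning (5 of 17), chromatin remodelling (7 of 24) and HOX genes (3 of 11) lie furthest to the right. Lists were chosen with earlier results of these data known, so their distance from the dashed lines is no test. They also overlap, and HOXA4 and HOXA9 count both as HOX genes and in the homeobox list.

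Other probe sets of the same genes mostly moved alike. The 180 genes that rose included 75 with further single-gene probe sets, 103 in all, of which 94 had the same sign, 49 were called higher and 1 lower. Of the 238 genes that fell, 66 had 89 further probe sets, of which 84 had the same sign, 32 were called lower and 1 higher. The genes with calls in both directions were ANKRD10, with 0.69 and -0.78, and TOR1AIP2, with 0.94 and -0.56, so their change is uncertain.

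The 5 h values can be set beside those at 24 h, which share the 3 control arrays and are given only as values. Of all genes tested, 19.9% rose and 20.1% fell by 24 h against control (40% together; 18.3%, 17.5% and 35.8% of probe sets), and 25.5% rose and 22.1% fell from 5 h to 24 h (47.6% together; 24.2%, 19.6% and 43.8% of probe sets). KCNK5, DKK1 and MCOLN3 had 2.46, 2.81 and 2.16 at 5 h and 2.73, 2.86 and 2.26 at 24 h. SEMA4A, GJC1, NFIL3 and CHD2 were close to control by 24 h, at -0.16, 0.08, 0.20 and 0.33. AKR1B1 had 0.40 and then 1.67, SLC4A11 1.34 and then 5.70, and SLC38A2 0.88 and then 0.31. Among the falls, EGR1, NAT1, BHLHE40 and DIDO1 had -0.23, -0.26, -0.09 and -0.03 at 24 h (5 h call of DIDO1 lost in 4 of the 9 refits), while MYC, TRIB1 and TCIM had -1.58, -1.38 and -1.22. PIP and PCTP, a lipid transfer protein, had -1.27 and -1.23 at 5 h and -1.28 and -1.26 at 24 h.

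**Figure D5:**
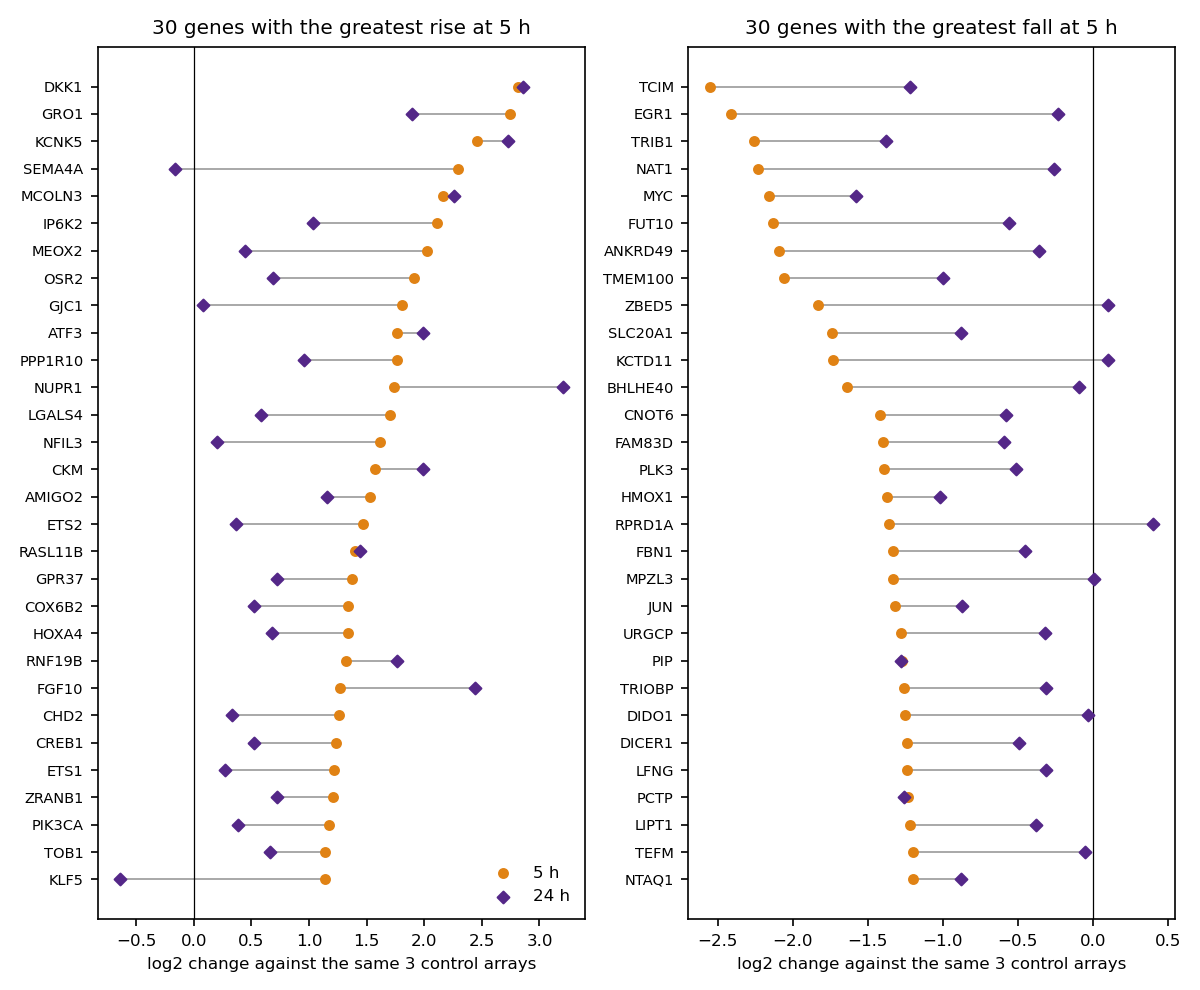
Log2 change from the same 3 control arrays at 5 h (circles) and 24 h (diamonds) for the 30 genes with the greatest rise (left) and fall (right) at 5 h, which were chosen on the 5 h values. SEMA4A went from 2.29 to -0.16 and NUPR1 from 1.74 to 3.20.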

How the data were processed

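The deposited values are microarray intensities on a linear scale, which, per the submitters' processing notes, the authors made with PLIER and Affymetrix Expression Console. Their versions and any normalization between arrays were not given in the sources used here. Of 24128 probe sets, the 112 AFFX controls were left out, as were probe sets below the 25th percentile of the mean, which left 18012. Values were taken as log2(intensity + 16), which compresses changes of dim probe sets, with no further normalization. Group means of all 9 arrays with the replicate number as a block were fitted with limma 3.58.1 in R 4.3.3 (lmFit, eBayes with an intensity trend), and a call needs a Benjamini-Hochberg adjusted p under 0.05 over all probe sets tested. All adjusted p-values come from this test. The script was tested on simulated data. Figures used matplotlib 3.10.9.

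The labels give the groups shared numbers but not their origin. Deviations from the group means of control and 5 h arrays with the same number correlated at 0.56, 0.72 and 0.88, and no same-number pair of the series was below 0.56. Numbers 1 and 2 also correlated with each other, at 0.31 (control 1 with 5 h 2) and 0.48 (control 2 with 5 h 1). Number 3 with the other numbers gave -0.78 to -0.52. Deviations cancel within a group, so likeness of same-number arrays in itself lowers the correlations between numbers. The correlations thus set number 3 apart and cannot by themselves show that numbers 1 and 2 are rightly paired. The arrays were paired by their numbers.

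Symbols came from the platform annotation: 13292 probe sets outside the controls carry 1 symbol, 86 several and 10638 none here, and 13263 matched a current gene table, with 0 symbols changed. A gene was read from its brightest single-gene probe set. The lists and families, and the genes, were chosen with earlier results of these data known. Named genes were the 30 greatest rises and 30 greatest falls among called genes that moved the same way in all pairs and whose higher group reached the median intensity, with placeholder symbols left out. Up to 5 called members of each list were added, and genes fixed by name, of which SLC5A3, SLC6A12, NFAT5, SOX9 and PER1 were not analysed here. Members that complete a short count, and those in the closing observations, were named after their values were seen. Alternatives changed the block, arrays fitted, scaling, pseudocount, filter, trend and replicates. A planned search of promoters for motifs was not run. The result of 1 called gene is not reported here.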

Additional observations from a re-analysis of the deposited data

Results flagged for a closer look

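The 24 h arrays were set against the 5 h arrays directly, so the control level does not enter the difference, while the control arrays share the estimates of spread and block. The genes had been chosen for their change at 5 h, so the 5 h arrays that chose them also enter this difference. Of the 131 named genes called at 5 h, 103 differed between the times by limma with the replicate block. Over all probe sets tested, 43.8% were called in that test (47.6% of genes), so a difference between the times was frequent on these arrays. All values are log2 differences, 24 h minus 5 h. The log2 ratio of the 3' to the 5' actin control probe set was 3.76, 3.73 and 4.02 at 24 h and 2.69, 3.39 and 3.12 at 5 h. That of the GAPDH control was 0.01, 0.04 and 0.02 at 24 h and 0.06, -0.03 and -0.01 at 5 h. The part of RNA quality in the differences between the times was not tested. The cause of these differences was not tested.

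One set, of 41 genes, had risen at 5 h and stood lower at 24 h than at 5 h. The difference was -2.45 for SEMA4A, -1.78 for KLF5, -1.73 for GJC1, -1.58 for MEOX2, -1.42 for NFIL3, -1.22 for OSR2 and -1.12 for LGALS4. It was -1.10 for ETS2, -1.08 for IP6K2, -1.08 for DUSP14, -0.99 for TOB2, -0.99 for RIPK2, -0.95 for ETS1 and -0.95 for FBXO33. Values were -0.93 for CHD2, -0.86 for MED26, -0.85 for GRO1, -0.82 for DNAJB1, -0.81 for COX6B2, -0.80 for PIK3CA and -0.79 for PPP1R10. Smaller differences were -0.77 for MRPS30, -0.70 for CREB1, -0.66 for HOXA4, -0.66 for ZFP36L1, -0.65 for GPR37, -0.59 for BRD2 and -0.58 for PNRC1. The difference was -0.56 for SLC38A2, -0.56 for LRRC8C, -0.56 for CSF1R, -0.49 for ZRANB1, -0.49 for FBXW11, -0.48 for TOB1 and -0.47 for JMJD1C. It was -0.46 for CREBBP, -0.45 for ZNF143, -0.43 for INO80, -0.35 for PPM1D, -0.27 for MRPL45 and -0.24 for ATF4. The highest adjusted p among them was 0.046, for ATF4.

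Another 8 genes that rose at 5 h stood higher still at 24 h. The difference was 4.35 for SLC4A11, 1.46 for NUPR1, 1.43 for SEMA6A, 1.27 for AKR1B1, 1.17 for FGF10, 0.72 for CLK1 and 0.48 for SLCO4A1. It was 0.44 for RNF19B. The highest adjusted p here was 0.014, for SLCO4A1.

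Of the genes that fell at 5 h, 53 stood higher at 24 h than at 5 h, of which all but 1 are given. The difference was 2.18 for EGR1, 1.97 for NAT1, 1.93 for ZBED5, 1.82 for KCTD11, 1.81 for TRIB2, 1.75 for RPRD1A and 1.74 for ANKRD49. It was 1.68 for ZNF3, 1.57 for FUT10, 1.55 for BHLHE40, 1.48 for CLK2, 1.33 for TCIM, 1.33 for MPZL3 and 1.32 for TRIM34. Values were 1.31 for ZNF181, 1.27 for CFLAR, 1.21 for DIDO1, 1.16 for TEFM, 1.08 for ID1, 1.06 for TMEM100 and 1.05 for MAP3K14. Next came 1.01 for RNF145, 0.96 for URGCP, 0.95 for TRIOBP, 0.94 for ZNF35, 0.93 for LFNG, 0.89 for FBXL12 and 0.88 for TRIB1. Smaller differences were 0.88 for PLK3, 0.88 for FBN1, 0.87 for KCTD18, 0.86 for SLC20A1, 0.86 for IFIT5, 0.85 for DDIT4 and 0.85 for CASP6. The difference was 0.84 for CNOT6, 0.84 for LIPT1, 0.83 for SLC43A2, 0.81 for ZBTB24, 0.80 for FAM83D, 0.79 for ZNF677 and 0.75 for DICER1. It was 0.74 for TRIM13, 0.70 for CCN2, 0.58 for MYC, 0.52 for CLCN3, 0.51 for RNF168, 0.48 for KLF11 and 0.46 for ZBTB1. Values were 0.41 for UTP3, 0.41 for MAPK6 and 0.28 for TGIF1. The highest adjusted p was 0.045, for TGIF1. The cyclin gene CCNE2, which had also fallen at 5 h, stood lower at 24 h than at 5 h, with a difference of -0.87 and adjusted p = 0.0015.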

How the results depend on the processing

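Without the replicate block, 42 probe sets were higher and 45 lower, and all of them were also called with it. With a random block 385 and 564 were called, on the 6 arrays compared 328 and 422, with pseudocounts of 1 and 64 423 and 601 and 403 and 562, with no filter 428 and 590, with a filter at the 50th percentile 355 and 424, and without the intensity trend 408 and 598. Leaving out 1 array gave 163 to 698 higher and 178 to 1256 lower. Leaving out all 3 arrays of a replicate number, chosen after seeing the data, gave 121, 656 and 83 higher and 129, 1156 and 86 lower for numbers 1, 2 and 3. Of 131 called named genes, 27 kept their call in every refit, 63 in all 9 single-array refits and 115 under both scalings. Among the named genes called, the 5 h change kept its sign wherever it was called in a refit. The difference 24 h minus 5 h, not called with all arrays, was 0.05 for DKK1 and 0.11 for MCOLN3. With all arrays of 1 number left out it ranged from -0.61 to 0.51 for DKK1 and from -0.48 to 0.45 for MCOLN3, and both lowest values, without replicate 2, were called lower (limma, adjusted p = 0.025 and 0.039). The cause was not tested. Intensities near the floor or near the top of the range limit what changes can be seen, and the arrays number 3 per group.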

Other observations

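Some gene pairs and groups outside the lists were singled out after their values were seen, so they carry no count or test as groups. The translation release factor genes GSPT1 and GSPT2 moved apart. GSPT1 had 1945, 2612 and 1815 in control and 3963, 5153 and 4098 at 5 h and rose by 1.06 ± 0.08. GSPT2 went from 236, 165 and 214 to 69.7, 129 and 91.8 and fell by 0.99 ± 0.22. HEXIM1, which rose, has a relative HEXIM2 that fell by 0.84 ± 0.19, from 281, 289 and 389.9 to 138, 217 and 163. The calls of the falling members ended for GSPT2 in 4 (highest adjusted p = 0.16, without 5 h replicate 1) and HEXIM2 in 6 (0.2, without 5 h replicate 1) of the 9 refits with 1 array left out, and that of HEXIM2 also with median centring.

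Several nuclear genes of mitochondrial RNA and translation fell at 5 h and had values near control at 24 h. TEFM, the mitochondrial transcription elongation factor, had 269, 282 and 247 in control and 81.2, 178 and 80.9 at 5 h, with the smallest fall in replicate 2, and fell by 1.20 ± 0.17 (limma, adjusted p = 0.0043). TRMT10C, a subunit of mitochondrial RNase P, fell by 0.99 ± 0.18, MTRES1 with a change of -0.93 ± 0.18, the mitochondrial leucyl-tRNA synthetase LARS2 with a change of -0.91 ± 0.13 from a dim level, and RMND1 with a change of -0.84 ± 0.21. Their values at 24 h were -0.05, 0.06, -0.02, -0.06 and -0.15. Of 67 mitochondrial ribosomal protein genes 2 rose and 0 fell at 5 h, beside 2.27% and 3.01% of all genes, and 0 rose without control replicate 3, 5 h replicate 1 or 5 h replicate 3. MRPS30 rose by 0.53 ± 0.10 and MRPL45 by 0.48 ± 0.09. Single-array refits ended the call for TRMT10C in 3 (highest adjusted p = 0.091, without control replicate 3), MTRES1 in 4 (0.12, without 5 h replicate 1), RMND1 in 6 (0.27, without 5 h replicate 1), MRPS30 in 5 (0.13, without 5 h replicate 1) and MRPL45 in 3 (0.11, without 5 h replicate 1), RMND1 also under both scalings.

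Further genes differed in course. JMJD6, a hydroxylase gene, had 157, 174 and 164 in control, 322, 349.5 and 357 at 5 h and 126, 144 and 121 at 24 h, and rose at 5 h by 0.99 ± 0.11. CEBPD, a stress and inflammation transcription factor, had 1175, 1247 and 1461 in control, 527, 859 and 452 at 5 h and 3338, 1808 and 3037 at 24 h, a change of -1.11 ± 0.27 at 5 h. The call ended with centring and, of the 9 refits, for CEBPD in 6 (highest adjusted p = 0.23, without 5 h replicate 1). NOTCH4 had 66.6 ± 7.07 in control, 25.6 ± 5.6 at 5 h and 124 ± 8.58 at 24 h (SD, n = 3). Its change from control was -0.99 ± 0.13 at 5 h and 0.76 at 24 h. JMJD6 and NOTCH4 kept their 5 h calls without the replicate block.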
